A study of Mus musculus with 6 samples.

Results

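The ion channel genes described here encode the pore-forming and auxiliary subunits of voltage-gated potassium, calcium and sodium channels and of the other potassium channel families. They were taken by symbol: protein-coding genes beginning with Kcn, Cacna, Cacnb or Cacng, and Scn genes ending in a or b. The rule left out Kcnj11, Cacna1c and Cacna1d, and it gave 130 genes of 53379 in the count tables. The libraries came from Min6, an insulin-producing cell line derived from a mouse insulinoma, at passage 28 in high glucose DMEM. The 3 JunD gRNA libraries came from cells that carried lentiCRISPR v2, a lentivirus that delivers Cas9 and its guide, with a guide against JunD. The 3 Rosa26 gRNA libraries came from cells with the same vector and a guide against the Rosa26 locus as negative control. All 6 were harvested on day 8 after transduction, after 30 h in glucolipotoxic conditions, so no library shows the cells without that treatment. The transduced cells were not described as clones, and JunD is a subunit of the AP-1 transcription factor.

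Beta cells fire calcium-dependent action potentials. When glucose metabolism closes ATP-sensitive potassium channels, the membrane depolarises, voltage-gated calcium channels open, and the calcium that enters triggers insulin release. Voltage-gated and calcium-activated potassium channels then repolarise the cell, 2-pore-domain potassium channels carry background current that holds the membrane negative, and sodium channels add to the upstroke of the spike.

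Library totals ran from 41071566 to 49628813 counts for JunD gRNA and from 43408459 to 50024931 for Rosa26 gRNA. Jund itself had 13.5, 15.0 and 16.1 RPKM in JunD gRNA libraries, against 23.6, 20.7 and 18.2 RPKM in Rosa26 gRNA libraries. CPM are counts scaled to the library total, and RPKM are CPM per kb of merged exons. Errors of levels are SD over the 3 libraries of a group, and errors of log2 fold changes are SE. The Jund log2 fold change was -0.47 ± 0.11, which did not pass the adjusted threshold of 0.05 on 6 libraries (edgeR, Benjamini-Hochberg adjusted p = 0.417). Rosa26 gRNA replicate 1 stood apart from the other libraries. It lay at -62.1 on the first principal component, where the other 5 lay between 6.09 and 22.5, and its Ins2 level was 16728 RPKM against 35010 to 40880 RPKM in the other 5. Log2 fold changes are therefore also given without it, on the 5 that remain, and there the Jund value was -0.38 ± 0.08 (edgeR adjusted p = 0.00773). All 9 beta-cell markers on the list were at 1 RPKM or more. Of other lists, 3 of 5 neuron markers were at that level, as were 1 of 2 duct, 1 of 3 macrophage and 1 of 2 delta-cell markers and the PP-cell marker. The neuron markers summed to 60.8 to 65.2 RPKM in JunD gRNA libraries and 61.8 to 63.8 RPKM in Rosa26 gRNA libraries. Markers of acinar, fibroblast, endothelial, muscle and glial cells were all below 1 RPKM. Gcg was at 432 to 453 RPKM in JunD gRNA libraries and 350 to 459 RPKM in Rosa26 gRNA libraries, a hormone of alpha cells; 2 of the 4 alpha-cell markers on the list were at 1 RPKM or more.

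Min6 cells expressed a minority of the channel genes. Of the 130, 42 averaged 1 RPKM or more in JunD gRNA libraries and 43 did so in Rosa26 gRNA libraries. That is 33.1% of the channel genes in Rosa26 gRNA libraries, against 50.5% of the 21865 protein-coding genes. Another 32 lay between 0.1 and 1 RPKM in Rosa26 gRNA libraries and 55 lay below 0.1 RPKM. The count of 43 moves with the cutoff, since Kcnu1 at 1.02 RPKM and Kcnt1 at 1.08 RPKM lay just inside it. Only 4 genes, Kcna6, Kcna10, Kcnj16 and Kcnk15, had no count in any library. For Kcnk15, 3 counts in a library would have been 0.03 to 0.036 RPKM, a limit that covers counting error only.

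Expression was concentrated in few genes. The 10 most abundant held 67.4% of the summed channel RPKM in JunD gRNA libraries and 66.5% in Rosa26 gRNA libraries. The top 4 alone, Kcnk16, Kcnh6, Kcnk1 and Kcnh1, held 46.4% and 44.5% in JunD gRNA and Rosa26 gRNA libraries. These 4 did not overlap one another over the 6 libraries. Kcnh1 and the fifth gene, Cacng7, overlapped, and from the sixth gene, Cacna1h, to the fifteenth, Cacnb1, each gene overlapped its neighbour. The summed level was 429, 429 and 435 RPKM in JunD gRNA libraries and 412, 422 and 428 RPKM in Rosa26 gRNA libraries.

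**Figure D1:**
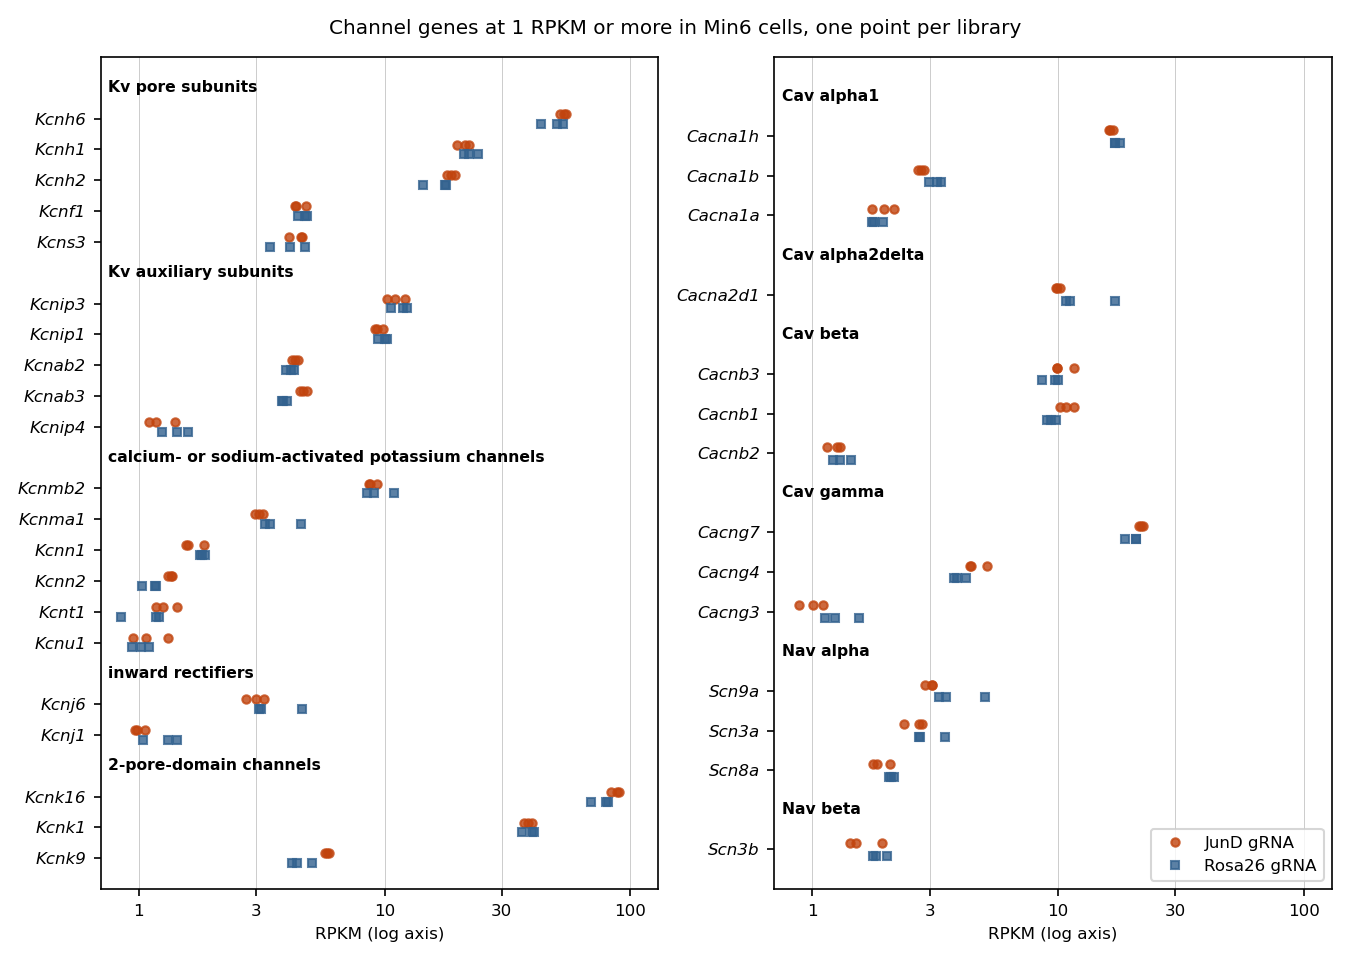
RPKM on a log axis in each library for 35 of the 43 channel genes at 1 RPKM or more, those named in the text, grouped by role. Circles are JunD gRNA libraries and squares Rosa26 gRNA libraries. Kcnk16, at 69.1 to 90.2 RPKM, lies furthest right, and for most genes the libraries of both groups lie close together.

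The promoters of the most abundant channel genes of the list differed in base composition. The windows, from RefSeq on GRCm38.p6, run from 250 bases before to 50 bases after the annotated start. The first is the Kcnk16 window at chr14:20269220-20269519 on the minus strand, with 57.0% GC and 2 CG dinucleotides. The second is the Kcnh6 window at chr11:106007898-106008197 on the plus strand, with 69.3% GC and 24 CG dinucleotides. They are shown because these are the genes of the list with the highest levels, and capitals mark CG dinucleotides.
Kcnk16: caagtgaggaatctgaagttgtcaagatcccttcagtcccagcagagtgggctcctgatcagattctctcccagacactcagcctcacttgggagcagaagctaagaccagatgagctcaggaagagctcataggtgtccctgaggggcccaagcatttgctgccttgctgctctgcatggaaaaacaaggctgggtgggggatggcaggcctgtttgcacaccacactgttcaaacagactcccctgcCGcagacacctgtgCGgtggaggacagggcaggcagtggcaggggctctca
Kcnh6: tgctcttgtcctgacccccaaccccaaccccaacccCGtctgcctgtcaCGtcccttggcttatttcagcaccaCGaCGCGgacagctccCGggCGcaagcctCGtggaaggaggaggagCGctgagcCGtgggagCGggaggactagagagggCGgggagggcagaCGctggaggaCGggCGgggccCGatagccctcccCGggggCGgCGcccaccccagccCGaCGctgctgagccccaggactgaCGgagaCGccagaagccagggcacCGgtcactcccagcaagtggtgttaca
Over the 96 channel genes with an entry in the table, Kcnk9 not among them, the median was 15 CG dinucleotides for the 27 genes at 1 RPKM or more and 11 for the 69 below it. Each of these genes was taken at the median of its windows. The median over all 32851 promoters was 7, taken over single windows and not over genes. Kcnk16, with the highest level, shared with Kcnj1 the lowest count among the 27, whose counts ran from 2 to 42.

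For AP-1, the factor to which JunD belongs, the windows were searched for the letters TGANTCA, where N is any base. This is a broad pattern, and a match does not show that AP-1 binds there. These letters, which read the same on both strands, were present in 5 of the 129 windows of these 96 channel genes, or 3.88%, against 7.81% of all windows. The related CRE letters TGACGTCA were in 0 of 129, against 1.79% of all windows; TGACGTCA does not contain TGANTCA. The genes with a TGANTCA match were Cacng5, Kcne3, Kcnip3, Kcnip4 and Kcnk2, of which Kcnip3 and Kcnip4 were at 1 RPKM or more. Kcnip3, the more abundant of the pair, has 3 windows, and only the window shown holds a match. The match begins at -122 from the annotated start in the window chr2:127522045-127522344 on the minus strand. It is shown as the match in the most abundant of these genes, and capitals mark the 7 matched bases.
Kcnip3: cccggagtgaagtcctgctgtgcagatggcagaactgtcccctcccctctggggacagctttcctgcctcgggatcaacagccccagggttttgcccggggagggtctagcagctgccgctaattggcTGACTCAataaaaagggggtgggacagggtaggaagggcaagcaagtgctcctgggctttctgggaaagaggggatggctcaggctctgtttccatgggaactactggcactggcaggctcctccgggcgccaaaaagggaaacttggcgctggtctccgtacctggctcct
Kcnip3 encodes a calcium-binding auxiliary subunit of A-type potassium channels that is also known as the transcriptional repressor DREAM. It had 10.2, 12.1 and 11.0 RPKM in JunD gRNA libraries and 10.6, 12.4 and 11.9 RPKM in Rosa26 gRNA libraries, and the groups overlapped (log2 fold change -0.06 ± 0.10 on 6 libraries and -0.13 ± 0.07 on 5, edgeR adjusted p = 0.794 and 0.347). Kcnip4 averaged 1.23 RPKM in JunD gRNA libraries and 1.41 RPKM in Rosa26 gRNA libraries.

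No channel gene passed the threshold between JunD gRNA and Rosa26 gRNA on 6 libraries. Of the 130, 87 had enough counts to be tested and 0 passed, and the same edgeR fit called 0 of all 17767 genes (0%). At an unadjusted p under 0.05 there were 10 channel genes, 6 higher and 4 lower, or 10 of 87 beside 11.9% of all genes tested. DESeq2 called 1 channel gene, Kcnk9, where it called 0.377% of all genes. Without Rosa26 gRNA replicate 1, edgeR called 1 of 89 channel genes, again Kcnk9, where it called 2.86% of all genes. The median log2 fold change of the channel genes was -0.06 on 6 libraries (-0.01 over all genes) and -0.01 on 5 libraries (-0.00 over all genes). The groups did not overlap in CPM for 10 tested channel genes with JunD gRNA higher, beside 11.6% of all genes, and for 8 with JunD gRNA lower, beside 12.8%. These 18 of 87 genes are thus near the background share in each direction.

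Kcnk9 encodes TASK-3, an acid-sensitive 2-pore-domain potassium channel of background type. Its gene (ENSMUSG00000036760.6) spans chr15:72501089-72546340 on the minus strand of GRCm38, with 2 exon blocks and 12300 exon bases. It had 2953, 3009 and 3569 counts in JunD gRNA libraries and 2696, 2586 and 2593 counts in Rosa26 gRNA libraries. Per length this was 5.74, 5.96 and 5.85 RPKM in JunD gRNA libraries, against 5.05, 4.20 and 4.41 RPKM in Rosa26 gRNA libraries. Every JunD gRNA library was above every Rosa26 gRNA library. Rosa26 gRNA replicate 1, the library that stood apart, was the nearest of its group to the JunD gRNA libraries. The log2 fold change was 0.38 ± 0.08 on 6 libraries (edgeR unadjusted p = 0.00108, adjusted p = 0.417). It was 0.45 ± 0.05 on 5 libraries, where Kcnk9 rose (edgeR adjusted p = 1.63e-05), and DESeq2 on 6 libraries also called it (adjusted p = 0.021). Whether Kcnk9 passes on 6 libraries therefore depends on the test, while its direction was the same with each library left out in turn, at 0.33 to 0.45. In bulk RNA such as this, more cells with a transcript and more transcript per cell cannot be told apart.

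**Figure D2:**
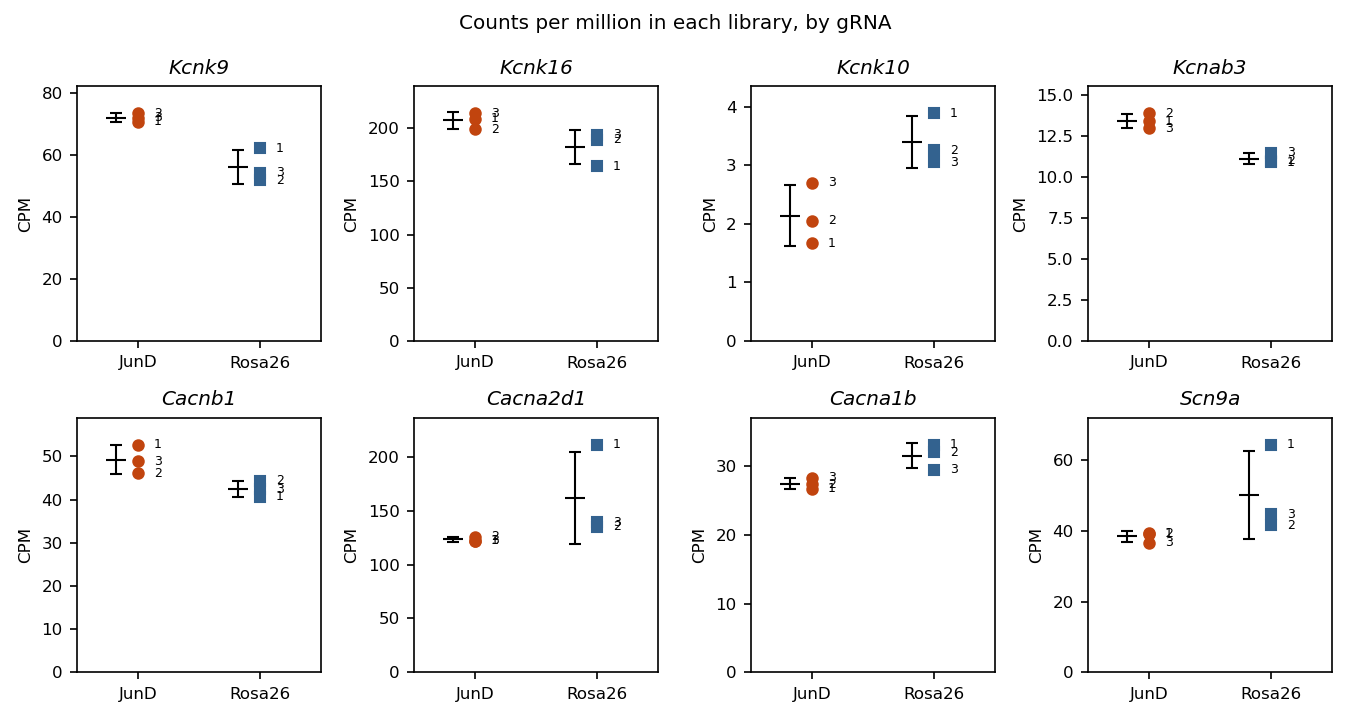
CPM in each library for 8 channel genes, with JunD gRNA left and Rosa26 gRNA right in each panel, numbers giving the replicate and bars the mean ± SD (n = 3). Kcnk9 is higher in all 3 JunD gRNA libraries, at 70.6 to 73.3 against 51.7 to 62.1 in Rosa26 gRNA libraries, and in Cacna2d1 and Scn9a Rosa26 gRNA replicate 1 lies far above the other 2 of its group.

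The 2-pore-domain family also held the channel gene with the highest level. Kcnk16 encodes TALK-1, an alkaline-activated channel known for its enrichment in the endocrine pancreas. It had 87.9, 83.8 and 90.2 RPKM in JunD gRNA libraries, against 69.1, 79.4 and 81.5 RPKM in Rosa26 gRNA libraries. No JunD gRNA library reached down to a Rosa26 gRNA library, and the lowest value was that of Rosa26 gRNA replicate 1. The difference did not pass on 6 libraries (log2 fold change 0.20 ± 0.08, edgeR adjusted p = 0.417) or on 5 (0.12 ± 0.04, adjusted p = 0.137). Kcnk1, encoding TWIK-1, had 37.1, 38.4 and 40.0 RPKM in JunD gRNA libraries and 39.9, 36.2 and 40.6 RPKM in Rosa26 gRNA libraries, with overlapping groups. Together Kcnk16, Kcnk1 and Kcnk9 were the only 3 of 14 members of the family at 1 RPKM or more. The family made up 30.9% of the summed channel RPKM in JunD gRNA libraries and 28.9% in Rosa26 gRNA libraries. Kcnk10, encoding the lipid- and stretch-sensitive TREK-2, was far lower, with 70, 84 and 134 counts in JunD gRNA libraries and 169, 163 and 146 counts in Rosa26 gRNA libraries. These groups did not overlap, but the log2 fold change of -0.64 ± 0.21 on 6 libraries and -0.55 ± 0.21 on 5 did not pass (edgeR adjusted p = 0.417 and 0.173). Kcnk3, encoding TASK-1, the close relative of TASK-3, averaged 0.036 RPKM in JunD gRNA libraries and 0.037 RPKM in Rosa26 gRNA libraries.

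Among the voltage-gated potassium pore subunits, the ether-a-go-go family led. Kcnh6 encodes an Erg-type channel, as does Kcnh2, the gene of the cardiac repolarising channel hERG. Kcnh6 had 51.8, 54.5 and 53.5 RPKM in JunD gRNA libraries and 43.2, 53.2 and 50.4 RPKM in Rosa26 gRNA libraries. The groups overlapped, with Rosa26 gRNA replicate 1 lowest (log2 fold change 0.14 ± 0.09 on 6 libraries and 0.04 ± 0.04 on 5, edgeR adjusted p = 0.486 and 0.688). Kcnh2 had 18.6, 17.9 and 19.4 RPKM in JunD gRNA libraries and 14.3, 17.6 and 17.8 RPKM in Rosa26 gRNA libraries. Its groups did not overlap, yet the difference did not pass (0.18 ± 0.10 on 6 libraries and 0.08 ± 0.05 on 5, edgeR adjusted p = 0.439 and 0.485). Kcnh1, the ether-a-go-go gene Eag1, averaged 21 ± 1.13 RPKM in JunD gRNA libraries and 22.3 ± 1.5 RPKM in Rosa26 gRNA libraries (SD, n = 3 each). Kcnf1 and Kcns3 encode subunits known to be silent alone and to modify other pore subunits. Kcnf1 averaged 4.49 RPKM in JunD gRNA libraries and 4.67 RPKM in Rosa26 gRNA libraries, and Kcns3 averaged 4.43 and 4.09 RPKM in the same order. Of the 40 pore subunits, 12 were at 1 RPKM or more and 25 were tested.

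The Shaker-type Kcna genes were all below 1 RPKM, and Kcna4 averaged 0.287 RPKM in JunD gRNA libraries and 0.354 RPKM in Rosa26 gRNA libraries. Kcna6 and Kcna10 had no counts, and Kcna1 and Kcna5, which lie beside Kcna6 within 208 kb of chromosome 6, had none in any Rosa26 gRNA library. Kcnq1, the gene of the cardiac and epithelial channel KvLQT1, had 0, 0 and 5 counts in JunD gRNA libraries and 0 in each Rosa26 gRNA library. Its antisense transcript Kcnq1ot1, an imprinted noncoding RNA, had 560 to 1127 counts over the 6 libraries. No source used here gives the strand setting of the counting, so reads of genes that overlap on opposite strands cannot be told apart.

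Among the auxiliary subunits of potassium channels, Kcnab3, a cytoplasmic beta subunit of Kv1 channels, had 4.67, 4.84 and 4.54 RPKM in JunD gRNA libraries, against 3.82, 3.85 and 4.02 RPKM in Rosa26 gRNA libraries. The groups did not overlap with or without Rosa26 gRNA replicate 1. The log2 fold change of 0.28 ± 0.09 on 6 libraries (edgeR unadjusted p = 0.0127, adjusted p = 0.417) and 0.25 ± 0.09 on 5 (adjusted p = 0.145) did not pass. Kcnab2, another beta subunit, averaged 4.33 RPKM in JunD gRNA libraries and 4.13 RPKM in Rosa26 gRNA libraries, but it overlaps Nphp4 and its counts are uncertain. Its groups overlapped on 6 libraries and did not on 5 or with TMM scaling. Kcnip1, a relative of Kcnip3, averaged 9.45 ± 0.394 RPKM in JunD gRNA libraries and 9.88 ± 0.443 RPKM in Rosa26 gRNA libraries, and its groups overlapped on 6 libraries but not on 5.

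Calcium-activated potassium channels were present at modest levels. Kcnma1, the pore of the large-conductance BK channel, had 3.21, 3.09 and 2.98 RPKM in JunD gRNA libraries and 4.56, 3.27 and 3.41 RPKM in Rosa26 gRNA libraries. The groups did not overlap, and replicate 1 lay far above the other 2 Rosa26 gRNA libraries. The log2 fold change was -0.26 ± 0.12 on 6 libraries and -0.11 ± 0.06 on 5 (edgeR adjusted p = 0.419 and 0.364). Kcnmb2, an inactivating BK beta subunit, was above the pore gene per length, at 8.88 ± 0.372 RPKM in JunD gRNA libraries and 9.47 ± 1.25 RPKM in Rosa26 gRNA libraries. Before division by length it was below Kcnma1, at means of 28.7 and 58 CPM over all 6 libraries. The order thus rests on merged exon lengths of 3128 bases for Kcnmb2 and 16976 for Kcnma1. Of the small-conductance SK genes, Kcnn2 had 1.35, 1.36 and 1.31 RPKM in JunD gRNA libraries, against 1.03, 1.16 and 1.18 RPKM in Rosa26 gRNA libraries. Its groups did not overlap, but the difference did not pass (0.27 ± 0.11 on 6 libraries and 0.20 ± 0.10 on 5, edgeR adjusted p = 0.417 and 0.352). The SK gene Kcnn1 averaged 1.66 ± 0.157 RPKM in JunD gRNA libraries and 1.82 ± 0.043 RPKM in Rosa26 gRNA libraries. Kcnmb1, the BK beta subunit best known from smooth muscle, averaged 0.364 RPKM in JunD gRNA libraries and 0.273 RPKM in Rosa26 gRNA libraries. It overlaps the far more abundant Kcnip1 on the opposite strand, so its 37 to 74 counts are uncertain. The intermediate-conductance Kcnn4 averaged 0.067 RPKM in JunD gRNA libraries and 0.069 RPKM in Rosa26 gRNA libraries.

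The inward rectifiers of the list were low. Only Kcnj6 and Kcnj1 of 14 were at 1 RPKM or more. Kcnj6, a G-protein-gated channel subunit, had 3.24, 3.00 and 2.72 RPKM in JunD gRNA libraries and 4.61, 3.13 and 3.10 RPKM in Rosa26 gRNA libraries, with overlapping groups. Its log2 fold change was -0.26 ± 0.15 on 6 libraries and -0.06 ± 0.08 on 5. Kcnj1, the renal channel ROMK, averaged 1.01 ± 0.05 RPKM in JunD gRNA libraries and 1.26 ± 0.198 RPKM in Rosa26 gRNA libraries. Kcnj3, a subunit that pairs with Kcnj6 in G-protein-gated channels, was low and scattered, at 0.096, 0.201 and 0.158 RPKM in JunD gRNA libraries and 0.380, 0.119 and 0.309 RPKM in Rosa26 gRNA libraries. Its groups overlapped (log2 fold change -0.80 ± 0.45 on 6 libraries and -0.49 ± 0.40 on 5, edgeR adjusted p = 0.444 and 0.621). Without Rosa26 gRNA replicate 2, the lowest of its group for Kcnj3, the value was -1.16, in a fit that called 0 genes. Kcnj12, a classical strong inward rectifier of muscle, averaged 0.018 RPKM in JunD gRNA libraries and 0.021 RPKM in Rosa26 gRNA libraries. Kcnj11, the pore of the ATP-sensitive channel and one of the genes left out, averaged 61.5 ± 2.26 RPKM in JunD gRNA libraries and 56.1 ± 5.19 RPKM in Rosa26 gRNA libraries. It was thus above every channel gene of the list other than Kcnk16 in the group means, while Kcnj8, the other pore subunit of such channels, was below 0.1 RPKM in each library.

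Among the calcium channel pores, the T-type gene Cacna1h had the highest level. It encodes Cav3.2, a channel that opens at small depolarisations. Cacna1h had 16.1, 16.2 and 16.7 RPKM in JunD gRNA libraries and 17, 17.8 and 17 RPKM in Rosa26 gRNA libraries. The groups did not overlap in this scaling, though they did once library sizes were scaled by TMM, and the difference did not pass (-0.07 ± 0.06 on 6 libraries and -0.09 ± 0.04 on 5, edgeR adjusted p = 0.609 and 0.316). Cacna1h was called in 1 of the settings, the edgeR fit on 5 libraries corrected for GC content and for length of the transcript, which called 3.15% of all genes and 3 channel genes. The L-type genes Cacna1c and Cacna1d, which the rule left out, averaged 4.77 and 4.66 RPKM in JunD gRNA libraries and 4.99 and 4.73 RPKM in Rosa26 gRNA libraries. Cacna1b, the N-type pore, had 2.69, 2.76 and 2.85 RPKM in JunD gRNA libraries, against 3.33, 3.22 and 2.97 RPKM in Rosa26 gRNA libraries. Its groups did not overlap, but the difference did not pass (-0.18 ± 0.08 on 6 libraries, edgeR unadjusted p = 0.0454, adjusted p = 0.417, and -0.16 ± 0.07 on 5, adjusted p = 0.248). The P/Q-type gene Cacna1a averaged 1.95 ± 0.20 RPKM in JunD gRNA libraries and 1.82 ± 0.105 RPKM in Rosa26 gRNA libraries. Cacna1g, the other T-type gene among those named, averaged 0.622 ± 0.108 RPKM in JunD gRNA libraries and 0.69 ± 0.074 RPKM in Rosa26 gRNA libraries. The R-type gene Cacna1e, spread over 25228 exon bases, averaged 0.122 and 0.132 RPKM in JunD gRNA and Rosa26 gRNA libraries.

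The accessory calcium channel subunits were each dominated by few genes. Cacna2d1 encodes the alpha2delta subunit that carries pore complexes to the membrane and binds gabapentin, and it was the only one of 4 alpha2delta genes at 1 RPKM or more. It had 9.85, 10.2 and 9.82 RPKM in JunD gRNA libraries and 17, 10.8 and 11.2 RPKM in Rosa26 gRNA libraries. The groups did not overlap, and replicate 1 lay far above the rest. The log2 fold change was -0.37 ± 0.15 on 6 libraries and -0.14 ± 0.04 on 5 (edgeR adjusted p = 0.417 and 0.0753). Corrected for GC content and length it was -0.09 on 6 libraries and -0.03 on 5 (edgeR adjusted p = 0.59 and 0.843). DESeq2 on 5 libraries called Cacna2d1 (adjusted p = 0.0397) and Kcnk9. It called 3.42% of the 18296 genes in that fit, of which 8513 were given no adjusted p and could not be called. Cacnb1, a cytoplasmic beta subunit, had 11.6, 10.2 and 10.8 RPKM in JunD gRNA libraries, against 8.98, 9.81 and 9.37 RPKM in Rosa26 gRNA libraries. Its groups did not overlap, yet the difference did not pass (0.23 ± 0.08 on 6 libraries and 0.19 ± 0.06 on 5, edgeR adjusted p = 0.417 and 0.113). Cacnb3, another beta subunit, averaged 10.5 ± 0.959 RPKM in JunD gRNA libraries and 9.43 ± 0.721 RPKM in Rosa26 gRNA libraries. Cacnb2 was lower, at 1.23 ± 0.077 RPKM in JunD gRNA libraries and 1.31 ± 0.12 RPKM in Rosa26 gRNA libraries. The gamma subunits Cacng7 and Cacng4 belong to a family that includes regulators of AMPA-type glutamate receptors. Cacng7 averaged 21.7 ± 0.408 RPKM in JunD gRNA libraries and 20.0 ± 1.16 RPKM in Rosa26 gRNA libraries, while its neighbours Cacng6 and Cacng8, in the same 103 kb of chromosome 7, were below 1 RPKM. Cacng4 averaged 4.65 ± 0.417 RPKM in JunD gRNA libraries and 3.97 ± 0.232 RPKM in Rosa26 gRNA libraries (0.24 ± 0.10 on 6 libraries and 0.20 ± 0.09 on 5, edgeR adjusted p = 0.417 and 0.272). Cacng3, of the same family, averaged 0.999 ± 0.109 RPKM in JunD gRNA libraries and 1.30 ± 0.226 RPKM in Rosa26 gRNA libraries, without overlap and without passing (-0.36 ± 0.18 on 6 libraries and -0.41 ± 0.19 on 5, edgeR adjusted p = 0.431 and 0.277).

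Sodium channels were represented by 3 pores and 2 beta subunits. Scn9a encodes Nav1.7, known from pain-sensing neurons and from beta cells. It had 3.08, 3.08 and 2.88 RPKM in JunD gRNA libraries and 5.04, 3.26 and 3.5 RPKM in Rosa26 gRNA libraries. There was no overlap between the groups, with replicate 1 again highest. The log2 fold change was -0.37 ± 0.14 on 6 libraries and -0.16 ± 0.06 on 5 (edgeR adjusted p = 0.417 and 0.172). Scn3a, the gene of Nav1.3, averaged 2.62 ± 0.239 RPKM in JunD gRNA libraries and 2.98 ± 0.43 RPKM in Rosa26 gRNA libraries, and its levels overlapped those of Scn9a. Scn8a, the gene of Nav1.6, averaged 1.89 ± 0.157 and 2.09 ± 0.049 RPKM in JunD gRNA and Rosa26 gRNA libraries. Scn1a, the gene of Nav1.1, which lies beside Scn9a on chromosome 2, had only 0.189 ± 0.04 RPKM in JunD gRNA libraries and 0.257 ± 0.0097 RPKM in Rosa26 gRNA libraries (-0.43 ± 0.20 on 6 libraries and -0.47 ± 0.21 on 5, edgeR adjusted p = 0.419 and 0.261). Scn3b averaged 1.62 RPKM in JunD gRNA libraries and 1.87 RPKM in Rosa26 gRNA libraries.

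**Figure D3:**
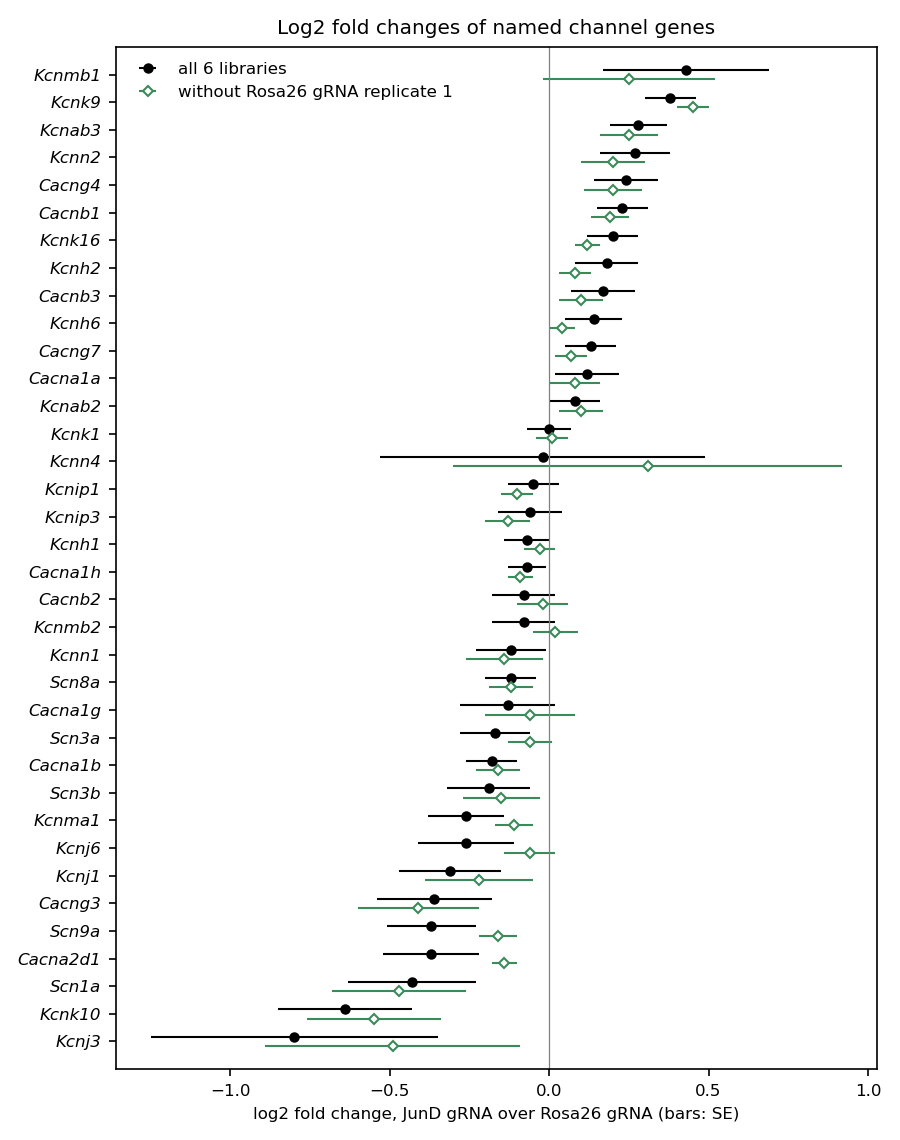
Log2 fold changes, JunD gRNA over Rosa26 gRNA, with SE bars, for 36 of the channel genes named by rule and tested on 6 libraries. Filled circles use 6 libraries and open diamonds leave out Rosa26 gRNA replicate 1. Kcnk9 lies at 0.38 and 0.45, while Cacna2d1 and Scn9a lie at -0.37 with all libraries and nearer to 0 without that replicate.

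The genes in which Rosa26 gRNA replicate 1 was highest had a lower median GC content and longer transcripts than those in which it was lowest. That library was the highest of the 6 for 34 of the 87 tested channel genes (39.1%), beside 38.3% of all genes tested. These 34 had a median GC content of 46.2% and a median transcript length of 6522 bases. Rosa26 gRNA replicate 1 was the lowest for 24 (27.6%), with medians of 55.1% and 3591 bases, beside 32.8% of all genes tested. Across the 87 genes, which are not independent of each other, the log2 fold change on 6 libraries correlated with GC content at a Spearman's rho of 0.45, and on 5 libraries, over 89 genes, at 0.25. The same correlation over all genes was not computed. Cacna2d1 has 40.7% GC, Scn9a 42.4% and Kcnma1 45.2%. With the correction for GC content and length, the log2 fold change of Scn9a was -0.10 on 6 libraries and -0.05 on 5, and that of Kcnma1 was -0.05 and -0.01. Kcnk9 has 47.9% GC, and its corrected log2 fold change was 0.52 on 6 libraries (edgeR adjusted p = 0.0142).

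Genes that work with these channels were examined as a list of 56 regulators, pumps and release channels, of which 52 were tested. On 6 libraries 0 passed and the median log2 fold change was -0.03. On 5 libraries 2 rose and 4 fell, or 6 of 52 where the same fit called 2.86% of all genes, with a median of -0.01. The list was written with earlier results of these data known, so the 2 shares cannot be compared as a test of the list. Gem encodes a small GTPase known to inhibit voltage-gated calcium channels. It had 8.61, 8.89 and 8.71 RPKM in JunD gRNA libraries, against 12.9, 12.1 and 11.0 RPKM in Rosa26 gRNA libraries, so the groups were well apart. Gem fell by 0.40 ± 0.08 on the log2 scale on 5 libraries (edgeR adjusted p = 0.00402) and had a log2 fold change of -0.44 on 6. Ryr2, an endoplasmic reticulum calcium release channel, averaged 0.668 ± 0.059 RPKM in JunD gRNA libraries and 0.914 ± 0.079 RPKM in Rosa26 gRNA libraries, and fell on 5 libraries (-0.38 ± 0.08, edgeR adjusted p = 0.00959). Atp2b1, a plasma membrane calcium pump, fell on 5 libraries (-0.17 ± 0.04, edgeR adjusted p = 0.0302), and with the correction the value was -0.07 (adjusted p = 0.286). Atp2a3, the SERCA3 pump of the endoplasmic reticulum, averaged 344 ± 4.53 RPKM in JunD gRNA libraries and 300 ± 20.1 RPKM in Rosa26 gRNA libraries and rose on 5 (0.15 ± 0.03, edgeR adjusted p = 0.00808). Calm3, one of the genes for calmodulin, also rose (0.17 ± 0.04, edgeR adjusted p = 0.0163). Abcc8, the sulfonylurea receptor that pairs with Kcnj11, averaged 286 ± 10.8 RPKM in JunD gRNA libraries and 269 ± 22.1 RPKM in Rosa26 gRNA libraries and did not pass on 6 or on 5 libraries (edgeR adjusted p = 0.535 and 0.75).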

How the data were processed

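RNA was sequenced from 6 libraries of Min6 cells. The authors deposited unnormalized counts for each gene. The submitters' processing notes name mm10, TopHat2 and featureCounts, while their versions, the annotation and the strand setting are not given in the sources consulted. Symbols were matched without the version number for 53274 of 53379 identifiers, and exon lengths came from GENCODE M21 on GRCm38. RPKM and CPM were computed from the counts with library totals.

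Groups were compared with edgeR 4.0.16 in R 4.3.3 (TMM, filterByExpr, quasi-likelihood test, two-sided, Benjamini-Hochberg adjustment over all genes tested, threshold 0.05). The code was also run on simulated counts with the same dispersion for every gene and no deviating library. These data differ from that setting, so the run does not bear on the effect of Rosa26 gRNA replicate 1. The SE is the absolute log2 fold change over the square root of F. Alternatives used DESeq2 1.42.0, limma-voom (limma 3.58.1), other filters and normalizations, a replicate block, left-out libraries, and a spline correction for the GC content and length of transcripts (5 degrees of freedom). No label states separate cultures, so the p-values reflect a spread between libraries that may be technical.

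The members, lists and tests were chosen with earlier results of these data known. Genes were named if called on 6 or 5 libraries, if among the 3 highest of a role class at 1 RPKM or more, if among the 5 highest or 5 lowest fold changes at 1 CPM or more, or if on a fixed list. Other genes, such as Kcnip4, Kcnf1, Kcns3, Kcnj8, Cacna1e, Cacng6 and Cacng8, were chosen after their values were seen. Some channel and related genes are counted but not reported here by name.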

Additional observations from a re-analysis of the deposited data

How the results depend on the processing

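The number of genes called depended on the setting. Where the main edgeR fit called 0 genes and 0 channel genes, DESeq2 called 67 and 1, voom with sample weights 426 and 1, the fit with no count filter 86 and 1, and the GC and length correction 25 and 1. Without Rosa26 gRNA replicate 1 the GC and length correction called 576 and 3, DESeq2 626 and 2, and limma-voom 588 and 1. Leaving out each library in turn gave 0 to 523 genes and 0 to 1 channel genes, with calls made only without Rosa26 gRNA replicate 1, and the cause was not tested. Upper-quartile and RLE normalization, limma-voom and the stricter count filter called 0. Kcnk9 was among the channel genes called in every setting that called any.

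The replicate block called 0 genes and 0 channel genes. Same-numbered libraries correlated at 0.0555, -0.0393 and 0.0742 in their deviations from the group means, so the numbers were not taken as pairs.

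The count of 43 channel genes at 1 RPKM or more was 47 at a cutoff of 0.5 RPKM, 31 at 2 RPKM, 44 with the longest transcript as length and 42 to 43 with a Rosa26 gRNA library left out. Chosen after seeing the data, the count of 18 of 87 channel genes without overlap was recomputed. It was 19 of 87 with TMM scaling and 24 of 89 without Rosa26 gRNA replicate 1. Groups with fewer libraries fail to overlap more readily, and the share over all genes was not computed for these recounts. The 24 can therefore not be read as a rise from 18.

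Of 755 recomputed log2 fold changes of 42 genes named in the text, 32 turned their sign, in 11 genes whose main values were at most 0.18 in size, and 0 of these 32 passed the test. With the GC and length correction on 6 libraries they were Kcnmb2 (0.10), Scn3a (0.08), Cacnb3 (-0.02), Cacnb2 (0.17), Kcnab2 (-0.06), Cacng7 (-0.04) and Kcnk1 (-0.05). With that correction on 5 libraries they were Kcnmb2 (0.11), Scn3a (0.06), Kcnh6 (-0.01), Kcnh2 (-0.002), Cacnb2 (0.09) and Kcnn4 (0.32). With sample weights they were Kcnmb2 (0.01), Cacnb2 (0.001), Kcnk1 (-0.01) and Kcnn4 (0.24). Without Rosa26 gRNA replicate 1, DESeq2 gave Kcnmb2 0.02 and Kcnn4 0.32, and limma-voom gave Kcnmb2 0.02 and Kcnn4 0.23. Kcnk1 was -0.0001 under RLE, -0.01 under upper-quartile normalization, -3e-05 under DESeq2 and -0.003 under the stricter filter. With each library left out the log2 fold change ran from -0.13 to 0.005 for Kcnip3, -0.04 to 0.04 for Kcnk1, -0.15 to 0.02 for Kcnmb2 and -0.45 to 0.31 for Kcnn4. Low counts limit genes below 0.1 RPKM.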
